A study of Mus musculus with 4 samples.

Results

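Dendritic cells (DCs) and their growth factor axis were followed through 10 genes of the deposited count table, taken as the rows whose gene name was Flt3, Flt3l, Itgax, Zbtb46, Batf3, Clec9a, Sirpa, Cd209a, Siglech or Cd86. All 10 were found among the 56748 genes listed. The table holds RNA-seq counts of the whole small intestine (SI), taken 1 day after mice received total-body irradiation (TBI) of 12 Gy from a Cs-137 source. The control group was 2 p53+/+ libraries (libraries 7 and 8), and the other group was 2 libraries of p53-/- mice (libraries 9 and 10), which lack the tumor suppressor p53 in every cell. The study used mice of 8 to 12 weeks, matched for age and gender between groups, and all mice sampled here had been irradiated, so no unirradiated level of any gene is given. The comparison asks how the transcripts of DCs in the irradiated SI differed with the p53 genotype.

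DCs take up antigen, carry it to lymph nodes and present it to T cells. They arise from bone marrow precursors that carry the receptor tyrosine kinase FLT3, and its ligand, made by stromal and blood cells, sets how many of them develop. Conventional DCs express the transcription factor ZBTB46 and the integrin chain CD11c (Itgax), and they fall into a cDC1 type that depends on BATF3 and a cDC2 type marked by SIRPα. Plasmacytoid DCs, a separate type that makes interferon, carry the lectin SIGLEC-H. In the SI these cells lie in the lamina propria under the epithelium and in the lymphoid follicles of Peyer's patches.

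The tissue was epithelial in all 4 libraries: Epcam ranged from 2220 to 4180 CPM (counts relative to library size, scaled by the trimmed mean of M values, TMM), although Fabp1, an epithelial marker, ranged only from 2.41 to 5.45 CPM. Totals ranged from 15005479 to 22173164 counts per library, so that 3 counts, used as the floor, corresponded to 0.131 to 0.195 CPM. Trp53, the gene targeted, was at 57.7 and 47.1 CPM in p53+/+ and 19.8 and 22.5 CPM in p53-/- libraries, which gave a log2 fold change of -1.31 (SE 0.188, adjusted p = 0.0602, and 1.38e-05 with DESeq2). Which exons the allele lacks was not examined, and the counts cover the gene as a whole. Library 10 stood apart from library 9: a list of 12 B cell genes summed to 2.48 and 3.83 CPM in p53+/+ libraries 7 and 8, to 30.8 CPM in library 9 and to 645 CPM in library 10. The follicle gene Cr2 had 1, 0, 10 and 894 counts in libraries 7 to 10, and the M cell gene Gp2 had 7, 5, 5 and 217. A rodent 18S ribosomal RNA gene took 4.59% of the counts of library 10 and at most 0.863% elsewhere. Library 8 stood apart from library 7 in 8 genes of stroma and smooth muscle, which summed to 3580 against 415 CPM. Results below are therefore given with and without these libraries.

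**Figure D1:**
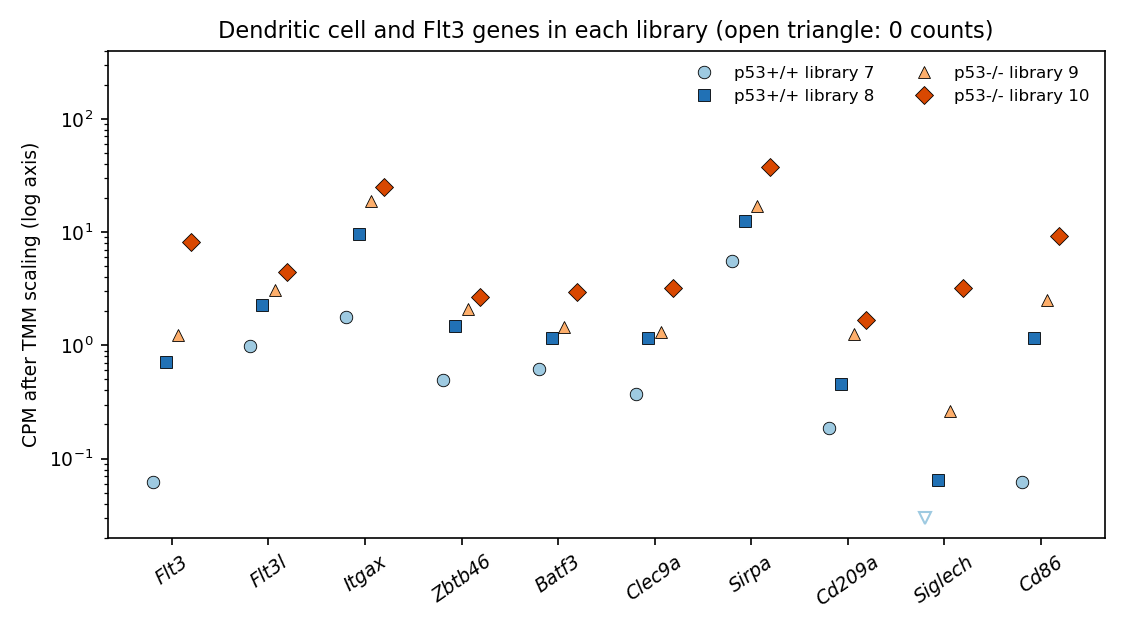
CPM after TMM scaling (log axis) of the 10 genes in each of the 4 libraries (circles and squares, p53+/+ libraries 7 and 8; triangles and diamonds, p53-/- libraries 9 and 10; an open triangle marks 0 counts and has no height on the axis). Each gene was lowest in library 7 and highest in library 10, and the highest p53+/+ value (library 8) lay below the lowest p53-/- value (library 9) in all of them.

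All 10 genes were higher in both p53-/- libraries than in both p53+/+ libraries, and all had the same order of libraries, from 7 over 8 and 9 to 10 (the plot of CPM by library). Of all 16094 genes tested, 26.4% were higher in both p53-/- libraries, and 9.56% were so with their lowest value in library 7 and their highest in library 10. The summed level of the 10 genes was 10.1 and 30.6 CPM in p53+/+ and 49.0 and 98.8 CPM in p53-/- SI. The step between the groups, from library 8 to library 9, was 1.6-fold, less than the 3.04-fold between the p53+/+ libraries and the 2.02-fold between the p53-/- libraries. No gene of the 10 passed the test of the genotype with the filter on low counts. With edgeR's quasi-likelihood test, 9 genes were tested, 0 had an adjusted p under 0.05 (0.298% of all genes were called higher) and 5 had an unadjusted p under 0.05, as did 10% of all genes in this direction. DESeq2, which called 5.15% of its genes higher, called 0 of the 9 genes, with 4 at an unadjusted p under 0.05. Without the filter, edgeR called Flt3, Itgax, Sirpa, Siglech and Cd86. In that fit 1433 of the 27841 genes tested were called higher. Log2 fold changes of the 9 genes ranged from 1.21 to 3.60 with a median of 1.60, where the median of all genes tested was -0.01. Whole tissue was sequenced, so more cells of a type and more RNA per cell cannot be told apart for any of these genes.

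Promoter sequence is shown for Itgax, Cd209a and Flt3 as examples of promoters that hold a motif searched for. Those of Batf3, Siglech and Zbtb46 hold one too, and the order of libraries was shared by all 10 genes. RefSeq promoters (GRCm38.p6, 300 bases, from 250 before to 50 after the transcription start) were matched for 8 of the 10 genes, Sirpa and Cd86 being the others. Letters in capitals mark matches, on either strand, of the ETS core GGAAGT bound by PU.1, of the AP-1 motif TGANTCA bound by the family of BATF3, or of an ETS-IRF composite (GGAA and GAAA separated by any 2 bases), which PU.1 binds with IRF4 or IRF8. Each sequence is written on the strand of its gene. Itgax lies at chr7:128129300-128129599 (plus strand), Cd209a at chr8:3748935-3749234 (minus strand) and Flt3 at chr5:147400440-147400739 (minus strand).
Itgax: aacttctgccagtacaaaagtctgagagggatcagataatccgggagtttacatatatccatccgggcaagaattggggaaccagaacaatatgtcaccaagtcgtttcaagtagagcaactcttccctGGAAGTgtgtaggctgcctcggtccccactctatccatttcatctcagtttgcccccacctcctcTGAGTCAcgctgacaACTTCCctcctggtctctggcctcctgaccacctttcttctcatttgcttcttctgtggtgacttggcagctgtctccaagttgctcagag
Cd209a: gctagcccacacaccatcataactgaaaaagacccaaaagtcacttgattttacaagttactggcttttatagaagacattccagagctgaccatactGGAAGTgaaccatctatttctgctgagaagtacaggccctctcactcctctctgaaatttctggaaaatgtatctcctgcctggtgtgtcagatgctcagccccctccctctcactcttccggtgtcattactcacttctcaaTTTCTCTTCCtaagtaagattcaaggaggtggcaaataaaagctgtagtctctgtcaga
Flt3: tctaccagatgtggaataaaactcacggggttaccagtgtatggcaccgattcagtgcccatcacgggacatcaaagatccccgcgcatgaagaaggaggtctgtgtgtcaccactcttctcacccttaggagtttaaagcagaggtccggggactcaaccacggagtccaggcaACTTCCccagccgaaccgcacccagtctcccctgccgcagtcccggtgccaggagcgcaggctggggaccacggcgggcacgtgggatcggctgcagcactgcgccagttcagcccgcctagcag
The ETS core was found in 5 of the 8 promoters, those of Batf3, Cd209a, Flt3, Itgax and Siglech, and in 23.8% of all 32851 RefSeq mouse promoters of this length. In Itgax it lay at -121 and -41 from the start, in Flt3 at -75 and in Cd209a at -152. The AP-1 motif lay at -56 in Itgax and -61 in Zbtb46, and 7.81% of all promoters hold it. The composite motif was found at -9 in Cd209a alone of the 8, and in 2.72% of all promoters. The motifs can overlap each other in their letters, and a match describes the sequence and not a bound site.

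Among the growth factor genes, the receptor Flt3 was barely detected in p53+/+ SI. It had 1 and 11 counts in p53+/+ libraries 7 and 8 and 28 and 166 counts in p53-/- libraries 9 and 10, or 0.0619, 0.714, 1.23 and 8.26 CPM. The groups did not overlap, but library 9 was 1.72-fold above library 8 while library 10 was 6.73-fold above library 9. The mean was 0.388 ± 0.461 CPM (SD, n = 2) in p53+/+ and 4.74 ± 4.97 CPM (SD, n = 2) in p53-/- SI, and the log2 fold change was 3.60 (SE 1.31, edgeR adjusted p = 0.247). Flt3l, the ligand, had 16 and 35 counts in p53+/+ and 70 and 90 counts in p53-/- libraries, or 0.99, 2.27, 3.07 and 4.48 CPM. The p53+/+ libraries differed more from each other, 2.29-fold, than library 9 from library 8, 1.35-fold. Its log2 fold change was 1.21 (SE 0.58, adjusted p = 0.356), the smallest of the 9 genes tested. Per kb of exon, the ligand was at 0.255, 0.586, 0.791 and 1.15 CPM and the receptor at 0.0100, 0.116, 0.199 and 1.34 CPM in libraries 7 to 10, so that the receptor exceeded its ligand in library 10 only. Of the 50-base sequences of Flt3l, 18.5% are shared with Gm45713, a gene of the same strand whose exons cover 22.1% of those of Flt3l. Gm45713 had 0 counts in all 4 libraries, so no reads of Flt3l were assigned to it. Whether reads of the shared part were left out of the counts of Flt3l was not tested.

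The markers of conventional DCs as a whole, Itgax and Zbtb46, were nearly level between the p53-/- libraries and unequal between the p53+/+ libraries. Itgax encodes CD11c, the integrin chain by which DCs are sorted, which intestinal macrophages also carry. It had 29 and 147 counts in p53+/+ and 432 and 506 counts in p53-/- libraries, or 1.79, 9.54, 18.9 and 25.2 CPM. Library 7 lay far below the others, and both p53-/- libraries were within 1.33-fold of each other. The means were 5.67 ± 5.48 and 22.1 ± 4.41 CPM (SD, n = 2 each), with a log2 fold change of 1.96 (SE 0.744, adjusted p = 0.26). Its neighbor Itgad, with which it shares 8.02% of its 50-base sequences, had 1, 3, 32 and 34 counts. Zbtb46, the transcription factor of conventional DCs that monocytes and macrophages largely lack, had 8 and 23 counts in p53+/+ and 48 and 54 counts in p53-/- libraries, or 0.495, 1.49, 2.1 and 2.69 CPM. Here the gap between the groups, 1.41-fold, was smaller than the 3.01-fold within p53+/+ SI. The log2 fold change was 1.27 (SE 0.664, adjusted p = 0.397), the largest adjusted p of the 9 genes.

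The cDC1 genes Batf3 and Clec9a had the narrowest gaps between the groups. Batf3, a transcription factor that cDC1 need to develop, had 10 and 18 counts in p53+/+ and 33 and 60 counts in p53-/- libraries, or 0.619, 1.17, 1.45 and 2.98 CPM. Library 9 was 1.24-fold above library 8, within the 1.89-fold and 2.06-fold between libraries of 1 genotype. The log2 fold change was 1.30 (SE 0.643, adjusted p = 0.369). Clec9a, a lectin by which cDC1 recognize dead cells, had 6 and 18 counts in p53+/+ and 30 and 64 counts in p53-/- libraries, or 0.371, 1.17, 1.31 and 3.18 CPM. Library 9 exceeded library 8 by only 1.13-fold, and their counts had overlapping 95% Poisson intervals (10.7 to 28.4 for 18 counts and 20.2 to 42.8 for 30 counts). The log2 fold change was 1.54 (SE 0.786, adjusted p = 0.385). Clec1b, which shares 4.02% of the 50-base sequences of Clec9a, had 2, 13, 12 and 29 counts. Of the other cDC1 markers, Xcr1, the chemokine receptor of cDC1, had 0, 6, 29 and 28 counts. Irf8, a transcription factor of cDC1, plasmacytoid DCs and B cells, was at 85.7, 79.5, 166 and 224 CPM (log2 fold change 1.24, SE 0.211, adjusted p = 0.0849). Both lay above the p53+/+ range in each p53-/- library. Neither passed the quasi-likelihood test, and Irf8 passed with DESeq2 (adjusted p = 7.24e-06).

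Among the cDC2 genes, Sirpa was the most abundant of the 10 and Cd209a had the widest gap between groups among the 9 tested. Sirpa, the receptor for the CD47 signal that restrains phagocytosis, is also made by macrophages and neurons. It had 89 and 194 counts in p53+/+ and 385 and 762 counts in p53-/- libraries, or 5.51, 12.6, 16.9 and 37.9 CPM. Libraries of 1 genotype differed by 2.29-fold and 2.25-fold and the groups by 1.34-fold at their nearest. The means were 9.05 ± 5.01 and 27.4 ± 14.9 CPM (SD, n = 2 each), with a log2 fold change of 1.60 (SE 0.551, adjusted p = 0.23). Cd209a, a lectin of the DC-SIGN family, had 3 and 7 counts in p53+/+ and 29 and 34 counts in p53-/- libraries, or 0.186, 0.454, 1.27 and 1.69 CPM. It was the only gene of the 9 tested whose nearest libraries of the groups, 2.8-fold apart, differed more than the libraries within each genotype, 2.45-fold in p53+/+ and 1.33-fold in p53-/- SI. The log2 fold change was 2.19 (SE 0.69, adjusted p = 0.201), the lowest adjusted p of the 9 genes. However, Cd209a had at least 10 counts in the p53-/- libraries only. It thus passed the filter through the group where it was high, and its gap rests on 3 and 7 counts in p53+/+ libraries. No 50-base sequence of Cd209a is shared with another gene, and of its 6 relatives in the cluster only Cd209b had counts of 3 or more in every library (5, 5, 9 and 3). Clec10a, another cDC2 lectin, had 1, 13, 18 and 30 counts and overlapped between the groups as CPM.

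Siglech, the marker of plasmacytoid DCs, was not tested since its counts were below the filter. It had 0 and 1 counts in p53+/+ libraries and 6 and 65 counts in p53-/- libraries, or 0, 0.0649, 0.263 and 3.23 CPM. Library 10 thus held 12.3 times the level of library 9. The level over both p53-/- libraries was 52.2 times that over both p53+/+ libraries (95% interval 9.08 to 2090, counting error only). With library 9 alone the ratio was 8.3 (1.01 to 382). Tcf4, the transcription factor of plasmacytoid DCs, which many other cells express, was at 14.0, 30.6, 34.4 and 47.5 CPM. Ccr9, a gut homing receptor of plasmacytoid DCs and T cells, had 12, 18, 173 and 127 counts (log2 fold change 2.86, SE 0.465, adjusted p = 0.0792), so its higher p53-/- library was library 9, unlike that of Siglech.

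Cd86, the costimulatory ligand of CD28 that mature DCs, macrophages and B cells display, had 1 and 18 counts in p53+/+ and 57 and 186 counts in p53-/- libraries, or 0.0619, 1.17, 2.5 and 9.25 CPM. The groups did not overlap, with 2.14-fold between libraries 8 and 9, but libraries 7 and 8 differed by 18.9-fold. The means were 0.615 ± 0.782 and 5.88 ± 4.78 CPM (SD, n = 2 each) and the log2 fold change was 3.25 (SE 1.23, adjusted p = 0.258). Cd80, the other ligand of CD28, had 45, 46, 16 and 50 counts, or 2.78, 2.98, 0.701 and 2.49 CPM, so that it was lower in both p53-/- libraries (log2 fold change -0.86, SE 0.69, adjusted p = 0.589).

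**Figure D2:**
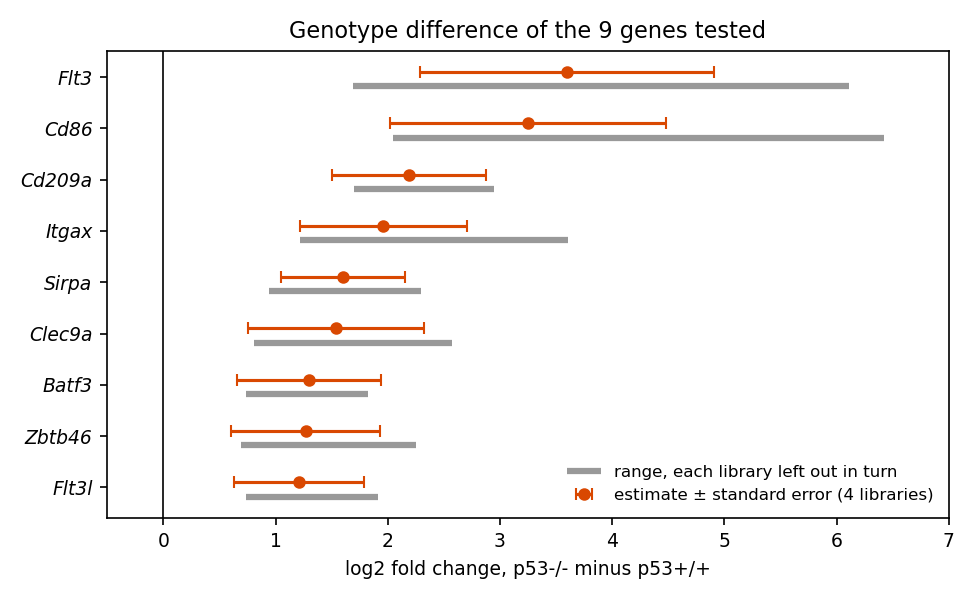
Log2 fold change of p53-/- minus p53+/+ (points, edgeR estimate from all 4 libraries; bars, standard error) of the 9 genes tested, with the range of the estimate when each library was left out in turn (gray). All ranges stayed above 0, which the lack of overlap between the groups set in advance. Those of Flt3 (1.69 to 6.11) and Cd86 (2.05 to 6.42) were the widest.

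The size of the differences depended on single libraries (the plot of fold changes). Each of the 9 estimates stayed above 0 with any 1 library left out. This outcome was set in advance, since both p53-/- values lay above both p53+/+ values in each gene. It therefore says nothing more about the direction. Without library 10 the estimates ranged from 0.74 to 2.05, with 0 genes at an unadjusted p under 0.05 and a lowest adjusted p of 0.834, and 0 genes of the 16696 tested in the table were called, with 767 higher and 434 lower at an unadjusted p under 0.05. In that fit the lone p53-/- library is assumed to vary as the p53+/+ libraries do. Without library 8, Itgax (adjusted p = 0.0101) and Cd86 (adjusted p = 0.043) passed the threshold, in a fit that called 680 of 17090 genes higher, against 48 of 16094 with all libraries. Only Flt3l, Itgax, Batf3 and Sirpa had at least 10 counts in all 4 libraries, and their median log2 fold change was 1.51 when only genes at that depth were tested.

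Compared per kb of exon, so that genes can be set beside each other, Sirpa and Itgax were the most abundant transcripts in both genotypes. In p53+/+ SI their means were 1.84 and 1.18 CPM per kb, followed by Batf3 (0.559), Flt3l (0.42), Clec9a (0.234), Cd209a (0.202), Cd86 (0.168), Zbtb46 (0.117), Flt3 (0.0628) and Siglech (0.00959). Every pair of neighbors in this order overlapped in range over the 2 libraries, which themselves differed in level. Within each library, Sirpa was above Itgax, Batf3 above Flt3l, Flt3l above Clec9a, Zbtb46 above Flt3 and Flt3 above Siglech. The other neighbors changed order in library 7 or 8. In p53-/- SI the order was Sirpa (5.58), Itgax (4.59), Cd86 (1.6), Batf3 (1.39), Flt3l (0.973), Cd209a (0.936), Flt3 (0.768), Clec9a (0.683), Siglech (0.517) and Zbtb46 (0.281). Here only Itgax (3.94 and 5.24 CPM per kb) and Cd86 (0.682 and 2.53) were neighbors whose ranges did not overlap. Batf3 was also above Flt3l, and Clec9a above Siglech, within each p53-/- library, while the other neighbors changed order. The exon lengths come from GENCODE M21 and may differ from those of the annotation used for counting.

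**Figure D3:**
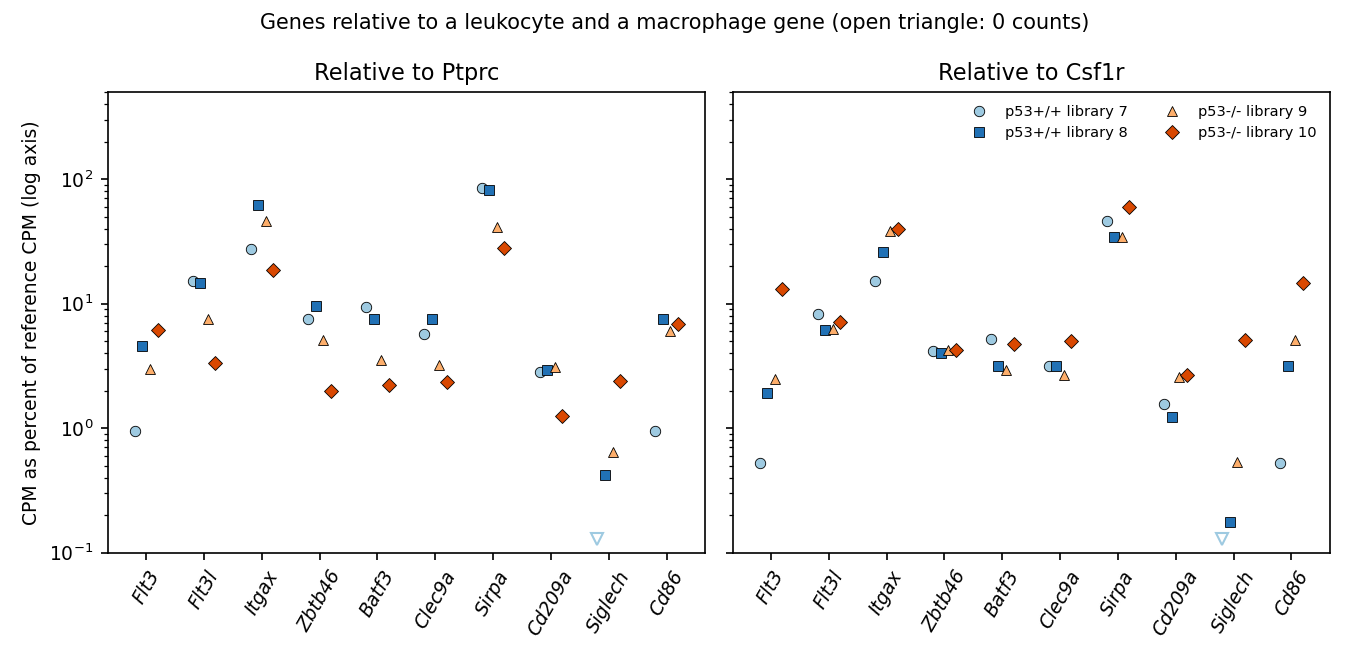
Level of each gene as a percent of Ptprc (left) or Csf1r (right) in the same library, on a log axis, for the 4 libraries (symbols by library; an open triangle marks 0 counts). Relative to Ptprc, 5 genes were lower in both p53-/- libraries, whereas relative to Csf1r only Zbtb46 of these 5 kept the groups apart, at 4.27% and 4.24% above 4.17% and 4.04%.

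Genes of all leukocytes were higher in p53-/- libraries too, so each gene was also expressed relative to Ptprc, which encodes CD45 on all leukocytes. Ptprc was at 6.56, 15.5, 41.1 and 134 CPM in libraries 7 to 10. Relative to it, Flt3l, Zbtb46, Batf3, Clec9a and Sirpa were lower in both p53-/- libraries than in both p53+/+ libraries, the opposite of their CPM. Sirpa was at 84% and 81.2% of Ptprc in p53+/+ and 41.1% and 28.2% in p53-/- libraries. Batf3 was at 9.43% and 7.53% against 3.52% and 2.22%, and Zbtb46 at 7.55% and 9.62% against 5.12% and 2.0%. Itgax, Cd209a, Flt3 and Cd86 overlapped between the groups, Itgax with 27.4%, 61.5%, 46.1% and 18.7% in libraries 7 to 10. Siglech alone was higher in both p53-/- libraries (0%, 0.418%, 0.64% and 2.41%), from 0 and 1 counts in p53+/+ libraries. The median difference of the 9 genes, as log2 of the percent, was -1.25 with all libraries and -0.73 without library 10. With 2 libraries a group, an exact permutation test cannot go below a two-sided p of 1 in 3, and none is given.

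The direction of these relative levels turned with the gene chosen for comparison. Relative to Csf1r, the CSF1 receptor of macrophages, the median difference of the 9 genes was 0.22 on the log2 scale. Csf1r itself was at 11.9, 36.9, 49.3 and 63.4 CPM. Zbtb46 was nearly level, at 4.17%, 4.04%, 4.27% and 4.24% of Csf1r in libraries 7 to 10, and Batf3, Clec9a, Sirpa and Flt3l overlapped between the groups, where Flt3l ranged from 6.15% to 8.33%. Flt3 (0.521%, 1.93%, 2.49% and 13.0%) and Cd86 (0.521%, 3.16%, 5.07% and 14.6%) were higher in both p53-/- libraries, as were Itgax, Cd209a and Siglech. The choice of Csf1r was made after these data were seen.

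**Figure D4:**
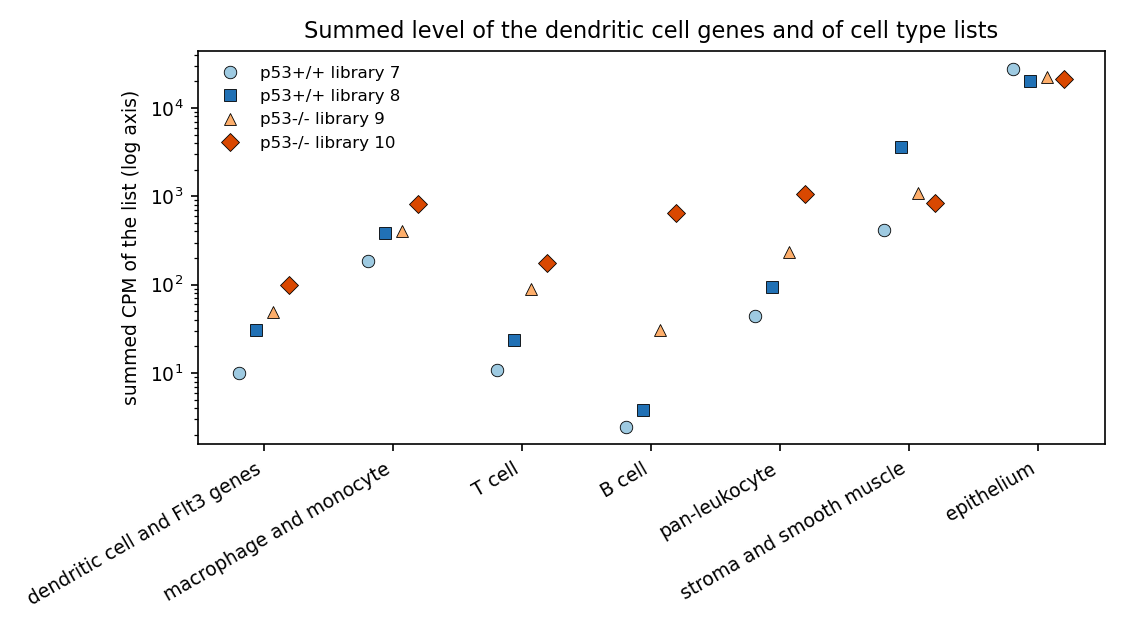
Summed CPM (log axis) of the 10 DC and Flt3 genes and of marker lists of other cell types in the 4 libraries (symbols by library). The B cell list spans 2.48 to 645 CPM, with library 10 far above library 9, while the epithelial list stays between 20300 and 27800 CPM.

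Summed levels of T cell and B cell markers were also higher in both p53-/- libraries (the plot of summed levels). Of the 16 macrophage and monocyte genes, 12 were higher in both, where 26.4% of all genes were. The part of these cells in the values above was not tested. The 8 NK and innate lymphoid genes overlapped between the groups, with sums of 90.8, 74.9, 100 and 81.9 CPM in libraries 7 to 10, and the 8 neutrophil and mast cell genes, at 0.124, 0.26, 5.83 and 2.74 CPM, were highest in library 9. The 16 macrophage and monocyte genes summed to 184, 388, 404 and 820 CPM in libraries 7 to 10. Library 9 was only 1.04-fold above library 8 in this sum, and Lyz2 alone was at 12.4, 46.1, 53.2 and 411 CPM. Of the 16, 15 had a positive log2 fold change, Mertk had a negative one (-0.59), and none was at 0 in any library. The quasi-likelihood test called 0 of them, with 6 higher at an unadjusted p under 0.05, and DESeq2 called 1 higher. Adgre1, which encodes F4/80 of macrophages, was at 2.54, 8.24, 8.5 and 6.42 CPM, so its groups overlapped. The 12 T cell genes summed to 10.8, 23.6, 89.7 and 174 CPM, with Cd3e of the T cell receptor complex at 0.99, 1.49, 7.06 and 9.75 CPM. Of the B cell markers, Ms4a1, which encodes CD20, had 0, 2, 32 and 1408 counts. Of the 12 B cell genes, 6 were at 0 in library 7 and 7 in library 8, whereas none was at 0 in library 9 or 10. Cd86, Irf8 and Irf4 are also expressed in B cells. The ratio of library 10 to library 9 was 20.9 for the summed B cell genes, 12.3 for Siglech, 6.73 for Flt3 and 3.7 for Cd86. It was 1.28 to 2.42 for Zbtb46, Itgax, Cd209a, Flt3l, Batf3, Sirpa and Clec9a, 1.35 for Irf8 and 2.18 for Irf4. For summed genes of all leukocytes it was 4.41, for macrophage and monocyte genes 2.03 and for T cell genes 1.94. The part of any cell type in these ratios was not tested.

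Beyond the 10 genes, 148 other genes of DC biology were listed by role, and 0 were called in either direction by the quasi-likelihood test. Of the 117 tested, 98 had a positive and 19 a negative log2 fold change, with a median of 0.88, and 75 were higher and 16 lower in both p53-/- libraries, where 26.4% of all genes were higher in both. At an unadjusted p under 0.05, 49 were higher and 3 lower, where 10% of all genes were higher. DESeq2 called 28 higher and 2 lower, where it called 5.15% of all genes higher. Their median was 0.78 without library 7 (128 genes tested), 1.94 without library 8 (128), 1.39 without library 9 (126) and 0.68 without library 10 (118). Genes were filtered anew in each of these fits, so the medians are not over the same genes. This holds for the lists below too, where such a shift mixes the library left out with the genes that entered. Csf1r, Cd22, Cd8a, Marcksl1, Bcl6 and Epcam of these genes also stand in the lists of other cell types.

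Of the 16 regulators of conventional DCs, 12 were higher and 4 lower, with 8 and 2 at an unadjusted p under 0.05. Ikzf1, a regulator of lymphoid and DC development, had 8, 38, 235 and 952 counts (log2 fold change 4.28, adjusted p = 0.137). Irf4, the transcription factor of cDC2 and plasma cells, had 11, 32, 275 and 528 counts (3.79, adjusted p = 0.0946). Of the cDC1 genes, 12 of 14 were tested and 10 were higher, and 9 of the 10 cDC2 genes tested were higher. In these lists Wdfy4, needed for cross-presentation and also made by B cells, had 22, 56, 263 and 1275 counts (3.91, adjusted p = 0.14), and Ltb, a lymphotoxin chain, had 21, 28, 132 and 914 (4.03, adjusted p = 0.148). Both were several times higher in library 10 than in library 9. Cd8a, a marker of cDC1 in lymphoid organs and of T cells, had 25, 53, 453 and 398 counts (2.99, adjusted p = 0.0658), and Itgam, which encodes CD11b, had 24, 34, 261 and 185 (2.48, adjusted p = 0.0804). These genes were at like levels in both p53-/- libraries.

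Among plasmacytoid DC genes, 13 of the 15 tested were higher, and their median log2 fold change of 1.53 was 0.72 without library 10, 0.92 without library 7 and 2.44 without library 8. Ly6d, also a gene of B cell precursors, had 25, 33, 117 and 961 counts (3.84, adjusted p = 0.17), and Lag3 had 8, 33, 180 and 253 (2.95, adjusted p = 0.146). Of the maturation and migration genes, 14 of the 16 tested were higher, with a median of 1.68 that was 0.76 without library 10 and 2.86 without library 9. Ccr7, which guides mature DCs and lymphocytes to lymph nodes, had 0, 5, 35 and 140 counts (4.67, adjusted p = 0.177). Cd40, by which T cells license DCs and help B cells, had 2, 13, 54 and 216 counts (3.75, adjusted p = 0.185). Both were higher in library 10 than in library 9, Ccr7 at 6.96 against 1.53 CPM and Cd40 at 10.7 against 2.37 CPM.

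The genes of FLT3 and myeloid growth factor signalling and of DC cytokines had the lowest medians of the lists with all libraries. Of the 22 signalling genes tested, 17 were higher and 5 lower, with a median of 0.36 and 4 genes at an unadjusted p under 0.05, all higher. Without library 7 the median was 0.07. Csf3r, the G-CSF receptor, had 8, 16, 56 and 41 counts (1.55, adjusted p = 0.26), and Csf2rb, the shared chain of the GM-CSF, IL-3 and IL-5 receptors, had 48, 105, 224 and 349 (1.47, adjusted p = 0.24). The cytokine list had 7 of 12 genes tested, 5 higher and 2 lower, with a median of 0.14. Over the genes that passed the filter in each fit, which may differ from these 7, it was 1.27 without library 7. It was 0.89 without library 8, 0.47 without library 9 and 0.23 without library 10. Ebi3 had 12, 5, 24 and 47 counts (1.65, adjusted p = 0.319), and Tgfb1 had 123, 196, 378 and 920 (1.62, adjusted p = 0.221). Il12b, which encodes IL12-p40 and was chosen with its values known, had 0, 1, 11 and 14 counts and was below the filter.

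The surface receptor families had positive medians as well. All 8 lectin genes tested, of 19 listed, were higher, with a median of 1.35 that was 0.93 without library 10, 2.91 without library 8 and 2.36 without library 9. Clec4a3 had 1, 6, 42 and 41 counts (3.08, adjusted p = 0.165) and Clec2i had 1, 1, 16 and 91. Of the SIRP and SIGLEC family, 7 of 8 genes tested were higher, and the B cell receptors Siglecg (0, 4, 26 and 333 counts) and Cd22 (17, 19, 74 and 1178 counts) had the largest fold changes, 6.04 (adjusted p = 0.176) and 4.75 (adjusted p = 0.178). The receptors that CD86 binds on T cells were near the detection limit in p53+/+ SI, with 1, 5, 65 and 146 counts of Cd28 (4.67, adjusted p = 0.105) and 1, 2, 23 and 98 counts of Ctla4. Each of these 6 genes was higher in both p53-/- libraries, as were 26.4% of all genes tested. None passed the quasi-likelihood test. DESeq2 called all of them but Clec4a3, where it called 5.15% of its genes higher. The 6 genes were named for the largest fold changes of their lists in these data, a choice that favors such outcomes. All but Cd22 had at least 10 counts in the p53-/- libraries only, and so passed the filter through the group where they were high.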

How the data were processed

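RNA of the SI of 2 p53+/+ and 2 p53-/- mice was sequenced after poly-T selection. The table deposited by the authors holds counts of reads for each gene as whole numbers, without any scaling. The submitters' processing notes name fastp, HISAT2 2.0.5, featureCounts 1.5.0-p3 and DESeq2 1.20.0, whereas the genome build, the annotation and the strand of counting are not given in the sources used here. Data points of the study are described as biological replicates. The columns name the genotype but not the replicate number of the labels, so libraries are called 7 to 10 after them.

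From the counts, TMM factors and filterByExpr (16094 genes kept) were applied and genotypes compared, two-sided, with the quasi-likelihood test of edgeR 4.0.16 in R 4.3.3 and Benjamini-Hochberg adjustment over all genes tested (threshold 0.05). The scripts were tested on simulated data. All p-values are of this test unless DESeq2 1.42.0 is named. Fold changes are on the log2 scale with SE, CPM values use TMM library sizes, and intervals and the 3-count floor cover counting error only. A ratio of Siglech levels has an exact 95% interval. Shared sequences were counted as 50-base words in GENCODE M21 transcripts.

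The 10 genes and all lists were chosen with earlier results of these data known. Named outside the 10 were the 2 genes of each list with the largest absolute fold change at a mean log2 CPM of at least 0, set markers, relatives of the 10 genes and Trp53. A set marker is not reported here. Alternatives were other scalings, filters and tests, other reference genes, immunoglobulin and T cell receptor segments (666 genes) or the 18S gene left out, and each library left out in turn.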

Additional observations from a re-analysis of the deposited data

How the results depend on the processing

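Over 112 pairs of a DC or Flt3 gene with an alternative, 106 kept the direction and the side of the threshold, 6 kept the direction and passed it, and 0 reversed. The passes came without a filter (Flt3, Itgax, Sirpa and Cd86, or 5 genes with Siglech) and without library 8 (Itgax and Cd86), so that 0 to 2 genes were called when each library was left out. The median log2 fold change of the 9 genes was 1.12 to 2.57 with each library left out (lowest without library 10, highest without library 8) and 1.58 to 1.63 otherwise, and was 1.51 over the 4 genes left with at least 10 counts in every library. Adjusted p ranged over the alternatives from 5.5e-06 to 0.926 for Flt3 and from 0.0558 to 0.841 for Cd209a. Among the 148 other DC genes, those called higher numbered 28 with DESeq2, 30 with edgeR's likelihood ratio test, 53 with no filter, 1 without immunoglobulin and T cell receptor segments and 0 to 24 with each library left out, and 2 were called lower with DESeq2. Over all genes, 48 higher and 31 lower calls became 26 and 20 when scaled by total counts alone, 29 and 20 by the upper quartile, 796 and 647 with DESeq2, 833 and 462 with the likelihood ratio test, 1433 and 761 with no filter, 24 and 18 with at least 10 counts in every library, and 0 to 680 and 0 to 344 with each library left out. Trp53 passed the threshold with DESeq2 (log2 fold change -1.32, adjusted p = 1.38e-05), the likelihood ratio test (-1.31, adjusted p = 7.85e-05) and no filter (-1.26, adjusted p = 3.51e-06), and ranged from -1.45 to -1.15 with each library left out (adjusted p 0.0199 to 0.417). The median of the 9 genes relative to Ptprc, -1.25, was -1.45 against the pan-leukocyte genes, reversed to 0.22 against Csf1r, and was -1.46 to -0.73 with each library left out. The causes of these changes were not tested. Leaving out the 18S gene and the use of Csf1r were chosen after seeing the data. Where a group was left with 1 library, that library was assumed to vary as the other group did. In those fits the direction of the 9 genes could not reverse, since their groups did not overlap. No paired analysis was possible because the columns carry no replicate number of the labels. Counts under 10 in at least 1 library limited 6 of the 10 genes.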
